A study of Caenorhabditis elegans with 57 samples.

Results

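The sperm-program genes described here are the 200 genes of *C. elegans*, of 45461 in the RNA count table, with the highest male over hermaphrodite RNA level in adult germlines. Levels are in CPM, the share of a library's counts that fall on a gene, scaled to a fixed library size. The members were chosen by measured values: genes were ranked by log2 of the mean male CPM plus 1 over the mean hermaphrodite CPM plus 1, in M+P+ male replicates 1, 2 and 4 and M+P+ hermaphrodite replicates 1 and 2, and genes with an msp- symbol were left out, which removed 12 genes over the threshold. These 5 libraries chose the genes, so differences between them are a description and carry no test.

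The series followed the inheritance of H3K27me3, a histone mark of gene repression, through sperm. CB4856 mothers that carried fem-2(b245ts), used to make them females, were mated with males of 2 kinds, and the study asked what the offspring and their descendants inherited. Fathers of M+P- offspring were homozygous for a mutation in mes-3, a component of the PRC2 complex that writes H3K27me3, so that their sperm genome lacked the mark, whereas fathers of M+P+ offspring carried mes-3 over the balancer hT2-GFP. Both kinds of offspring studied had the same genotype.

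In the first cross the fathers were of the N2 background, carried him-8(e1489), and were either homozygous for mes-3(bn35) or heterozygous for it over hT2-GFP, and all offspring were mes-3(bn35)/+, fem-2(b245ts)/+ and him-8(e1489)/+. From it came germlines of males (4 M+P- and 4 M+P+ libraries) and hermaphrodites (2 and 2), and newly hatched L1 larvae of mixed sex (3 and 3). In the second cross the fathers were homozygous for mes-3(bn199) or heterozygous for it over hT2-GFP. All worms sampled carried glh-1::GFP::3xflag, mes-3(bn199)/+ and fem-2(b245ts), and the germlines were of F2 GM+GP- hermaphrodites (3 libraries), which had no father and descended from M+P- worms, and of F1 M+P- (3) and F1 M+P+ (3) hermaphrodites. The F2 GM+GP+ worms that the study's design also names were not analysed here. Germlines of mes-3(bn35) him-8(e1489) males with heterozygous mothers, called mes-3 M+Z-, and of him-8(e1489) males (3 libraries each) stood for the fathers, and both carried him-8, which raises the share of males. CUT&RUN, in which an antibody directs a nuclease to a mark, was done for H3K27me3 and H3K36me3 in him-8 males and in all the hermaphrodite groups (2 libraries per group and mark). Each RNA germline sample pooled the parts distal to the bend of 30 to 50 gonads of day 1 adults, and each larval sample about 100 larvae. CUT&RUN germlines were also of day 1 adults, and the labels used here give no gonad number for them. The larval labels give a hatching time of 2 hours. By the labels worms were grown at 20 C, the fem-2 strain was kept at 15 C and its females were raised at 25 C.

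In *C. elegans*, males make sperm throughout adult life, and hermaphrodites make sperm as larvae and then switch to oocytes, so that an adult hermaphrodite gonad distal to the bend holds mitotic and meiotic cells of the oocyte program. The sperm program includes major sperm protein and its relatives, which drive the crawling of the mature sperm, small basic proteins that pack the sperm chromatin, sperm-specific phosphatases and kinases, and a pair of Argonaute proteins that act with small RNAs. The X chromosome is largely silent in germ cells that make sperm. H3K36me3 marks the bodies of genes that are transcribed, and H3K27me3 marks genes kept silent.

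The rule's values ran from 7.07 to 9.54 (log2). The chosen genes had 138 to 1386 CPM (median 244) in the 3 M+P+ male libraries and 0 to 2.56 CPM (median 0.228) in the 2 M+P+ hermaphrodite libraries. The 10 highest were ssq-2, nsph-3.2, gipc-1, ssq-1, spch-3, ant-1.4, ssq-4, Y113G7C.1, spch-1 and Y57G11A.2. The 5 genes just inside the threshold were F08H9.2, B0261.6, Y53F4B.11, ttbk-2.2 and F37A4.4 (7.09 to 7.07), and the 5 just outside it were F57F4.1, kin-5, M05B5.3, R105.1 and F53B6.4 (7.07 to 7.06).

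By RefSeq annotation 196 of the 200 were protein-coding genes and 4 pseudogenes, and 121 had no gene symbol beyond their sequence name. Chromosome IV held 68 of them (34%, against 16.3% of protein-coding genes), I held 51 (25.5%, against 14.5%), II 38 (19%, against 17.2%), III 23 (11.5%, against 13.3%) and V 20 (10%, against 25.1%). X held 0 of the 200, against 13.6% of protein-coding genes. In gene order 30 of the 200 lay directly beside another of the 200, in 13 runs. The longest, on chromosome I, had 5 genes: ZK484.7, nspd-1, spch-3, T27A3.5 and ssp-16. A run of 3 on chromosome IV joined ssp-9, ssq-2 and ssp-11. Many of these genes belong to families of near-identical copies (ssq, ssp, nspd, nsph, spch and msd genes, gsp-3 with gsp-4, alg-3 with alg-4), among which the authors' counting could split reads, so the levels of single family members are uncertain.

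The label was checked against lists of genes with known roles in sperm and of markers of other tissues. Of 91 genes on the 9 sperm lists, 30 were among the 200: the Argonaute genes alg-3 and alg-4, the phosphatase genes gsp-3 and gsp-4, the spermatogenesis-defective genes spe-4, spe-11, spe-18 and spe-46, the sperm chromatin genes spch-1, spch-2 and spch-3, the sperm meiosis gene smz-2, and 18 genes of small sperm-specific families. The 18 were ssp-9, ssp-10, ssp-11, ssp-16, ssp-35, sss-1, sss-2, ssq-1, ssq-2, ssq-3, ssq-4, nspd-1, nspd-2, nspd-5, msd-1, msd-2, msd-4 and msrp-2. None of 128 marker genes of muscle, somatic gonad, intestine, neurons, cuticle, oogenesis and the germline core was among the 200 (0 of 128). The other 170 members were on none of the sperm lists.

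Across libraries, totals were 5706650 to 19191934 counts for RNA, 2797547 to 25714782 for H3K27me3 and 1701400 to 41980395 for H3K36me3. The him-8 male libraries had the lowest totals of both marks. They had 2797547 and 4606666 counts for H3K27me3, where the lowest hermaphrodite library had 10311833. For H3K36me3 they had 1701400 and 4543503, where the lowest hermaphrodite library had 7521186. Besides these, 3 libraries stood apart. M+P+ male replicate 3 had a summed level of 20 muscle genes of 3743 CPM, against 26.3 to 49.2 CPM in the other M+P+ males. F1 M+P- replicate 3 had counts for 9210 genes, against 12481 to 13766 in the other F1 libraries, and H3K36me3 M+P+ hermaphrodite replicate 2 had the highest total. Of these 3, the first 2 were left out of tests and their values are given. mes-3 RNA was 41.9, 35.2 and 20.4 CPM in mes-3 fathers and 46.5, 40.5 and 38.7 CPM in him-8 fathers, with overlap, so its RNA level does not check the genotype labels.

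In male germlines the 200 genes were a large part of all RNA. They held 3.55%, 6.14%, 7.86% and 8.07% of the counts in M+P- males and 4.26%, 5.99%, 6.76% and 9.76% in M+P+ males, and 5.81%, 7.04% and 7.85% in mes-3 fathers, against 5.26%, 5.78% and 7.95% in him-8 fathers. The groups of each pair overlapped. In hermaphrodite germlines and larvae the same sum was at most 219 CPM in each library, so these tissues held little of the program's RNA. Dissected tissue is a mixture, and fewer cells of a type and less RNA per cell cannot be told apart here.

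**Figure D1:**
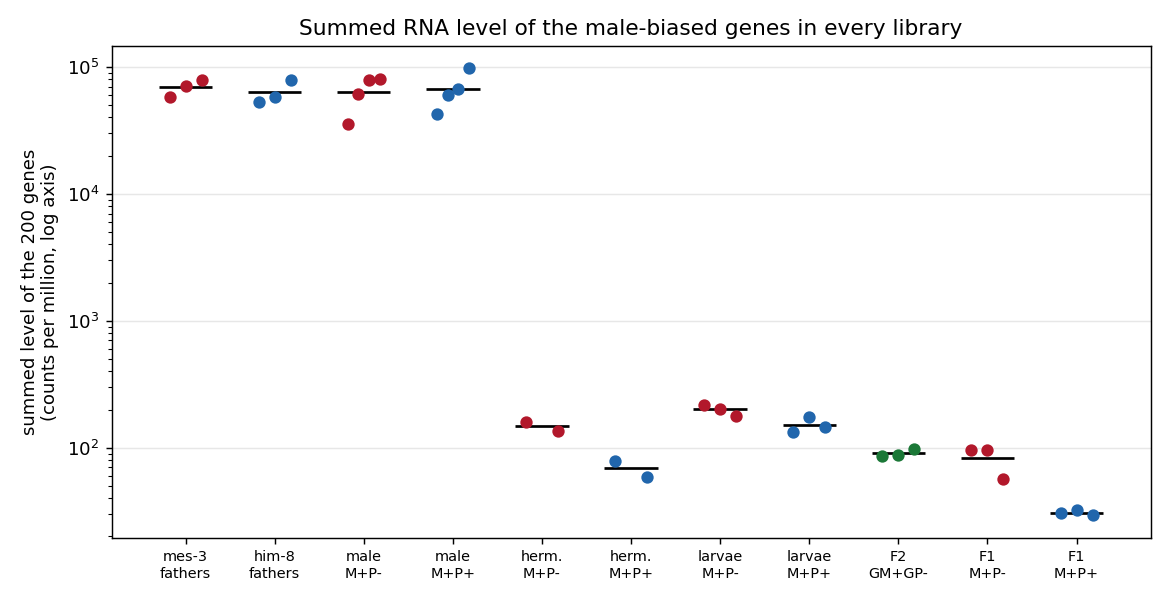
Summed RNA level of the 200 male-biased genes, in CPM on a log axis, in each library (dots) of 11 groups, with the group mean as a line. Male libraries lie between 35466 and 97561 CPM. Hermaphrodite and larval libraries lie between 29.3 and 219 CPM.

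The male over hermaphrodite contrast was repeated in M+P- worms, whose libraries the rule did not use. Genes were tested with edgeR's quasi-likelihood test over all genes, and a gene is said to have risen, fallen or been called where its Benjamini-Hochberg adjusted p was under 0.05. All 200 were tested and all 200 were higher in M+P- males, beside 33.2% of all 10828 genes tested that were higher and 27.3% that were lower (60.5% called). The log2 differences ran from 4.42 to 12.07, with a median of 10.02, beside 0.13 over all genes. The genes were chosen for this difference in the M+P+ offspring of the same cross. Their median in the M+P- hermaphrodite libraries was 0.331 to 0.362 CPM, with 25 to 28 of them over 1 CPM. Most could thus pass the filter on low counts through males alone. The count, and the tests of single members that follow, are a description. Of the 87 sperm-list genes in the table, 84 were tested, of which 81 were higher in M+P- males, 1 was lower and 2 were not called. Of 22 oogenesis markers, 22 were lower in M+P- males.

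Of the small sperm-specific families, ssq-2 had 494, 1085, 1417 and 1456 CPM in M+P- male replicates 1 to 4, against 0.996 and 1.08 CPM in M+P- hermaphrodites, a log2 difference of 10.31 ± 0.80 (SE) with an edgeR adjusted p of 0.000139. The sperm chromatin gene spch-3 had 411, 781, 1004 and 955 CPM in M+P- males, against 1.09 and 0.745 CPM in M+P- hermaphrodites (9.99 ± 0.68, edgeR adjusted p = 0.000104). In both genes M+P- male replicate 1 was the lowest of the males and still far above both hermaphrodite libraries. The phosphatase gene gsp-3, needed for sperm meiosis and motility, had 399.7, 686, 821 and 821 CPM in M+P- males, against 0.815 and 0.828 CPM in M+P- hermaphrodites (9.93 ± 0.58, edgeR adjusted p = 6.95e-05). alg-3, whose Argonaute acts in the sperm-specific small RNA pathway, had 442, 646, 838 and 860.3 CPM in M+P- males, against 0.905 and 0.911 CPM in M+P- hermaphrodites (9.82 ± 0.54, edgeR adjusted p = 6.01e-05). No male library overlapped a hermaphrodite library in these 4 genes. spe-4, a presenilin-family gene needed to sort proteins into sperm organelles, reached 161, 246, 279 and 266 CPM in M+P- males, against 0.0905 and 0.166 CPM in M+P- hermaphrodites. spe-11, whose sperm-supplied protein acts in the embryo, reached 95.7, 189, 258 and 284 CPM in M+P- males, against 0.272 and 0.248 CPM in M+P- hermaphrodites. spe-4 rose by 10.97 ± 0.54 and spe-11 by 9.83 ± 0.86 on the log2 scale (edgeR adjusted p = 5.25e-05 and 0.000198).

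Members moved together across the M+P- male libraries, to unequal extents. Replicate 1 was the lowest for 199 of the 200 genes, and the highest library was replicate 4 for 131 and replicate 3 for 67. The ratio of the highest to the lowest of the 4 libraries had a median of 2.44 and ran from 1.11 to 5.30. At the top was nspd-2, a nematode-specific peptide gene, with 63.5, 200.4, 336 and 250.3 CPM, and at the bottom H20J04.1, with 160.3, 167, 175 and 178 CPM (both chosen after their values were seen). ant-1.3, which encodes an adenine nucleotide carrier of mitochondria, had 661, 877, 983 and 932 CPM. Its lowest library was again replicate 1, but closer to the others than in ssq-2. The summed oogenesis markers were 3881, 2798, 2032 and 1923 CPM in replicates 1 to 4, and the muscle markers 497, 105, 217 and 52.6 CPM, so replicate 1 was the highest in both lists and replicate 4 the lowest. The part of this in the members' spread was not tested.

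In fathers, few genes of the sperm program were called between mes-3 and him-8 males in the fit without a replicate block. With the replicate number as a block 54 of the 200 were called (27%), beside 22.8% of genes. The values that follow are from the fit without it. All 200 genes were tested, and 2 rose and 2 fell in mes-3 fathers (2.00% called), beside 8.33% of 8873 genes called (7.01% higher and 1.32% lower). The median log2 difference was 0.05, beside 0.03 over all genes, and 122 of the 200 were above 0 (55.2% of all genes were). 6 members (3%) had all 3 mes-3 libraries above all 3 him-8 libraries, and 8 (4%) had all 3 below, beside 19.01% and 6.93% of all genes tested, so both shares were under those of all genes.

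Y57G7A.6 had 264, 311 and 359 CPM in mes-3 fathers, against 149.6, 159.6 and 183 CPM in him-8 fathers, with no overlap (log2 difference 0.87 ± 0.15, edgeR adjusted p = 0.0149). M70.1 had 195, 254 and 222 CPM in mes-3 fathers, against 112, 125 and 142 CPM in him-8 fathers, also with no overlap (0.77 ± 0.14, edgeR adjusted p = 0.0188). C44B9.2 fell, with 199.8, 182 and 224 CPM in mes-3 fathers, against 293, 277 and 274 CPM in him-8 fathers (-0.52 ± 0.10, edgeR adjusted p = 0.0221). Its groups did not overlap either, and nor did those of the fourth gene, fcmt-1. fcmt-1 had 560.0, 535 and 613 CPM in mes-3 fathers, against 730.0, 672 and 761 CPM in him-8 fathers (-0.39 ± 0.09, edgeR adjusted p = 0.0471). Without mes-3 replicate 2, or without him-8 replicate 2, 0 of the 200 were called (adjusted p of Y57G7A.6 0.0841 and 0.0770), and without him-8 replicate 1 or replicate 3, 2 and 9 were. The next gene by adjusted p was wago-10, an Argonaute gene, with a mean of 415 ± 30.6 CPM (SD, n = 3) in mes-3 fathers and 508 ± 22.6 CPM (SD, n = 3) in him-8 fathers (edgeR adjusted p = 0.0576). Of 199 members with an adjusted p in the authors' deposited table, 0 were called higher and 2 lower in fathers, of which 1 was also called here. The share of all genes called there is not given here. The summed muscle markers were 98.4 to 432 CPM in mes-3 fathers and 63.97 to 173 CPM in him-8 fathers, and the part of other tissues in these differences was not tested.

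The best known sperm genes did not pass the test. ssq-2 had 1605, 2097 and 2481 CPM in mes-3 fathers, against 1201, 1641 and 2530.3 CPM in him-8 fathers (log2 difference 0.15 ± 0.29, edgeR adjusted p = 0.820). spch-3 had 658, 872 and 1081 CPM in mes-3 fathers, against 627, 805 and 1115 CPM in him-8 fathers (-0.02 ± 0.26, edgeR adjusted p = 0.974). The groups overlapped in both genes. alg-4 had 532, 557 and 606 CPM in mes-3 fathers, against 648, 643 and 678 CPM in him-8 fathers, with no overlap and without passing the test (-0.26 ± 0.09, edgeR adjusted p = 0.137).

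**Figure D2:**
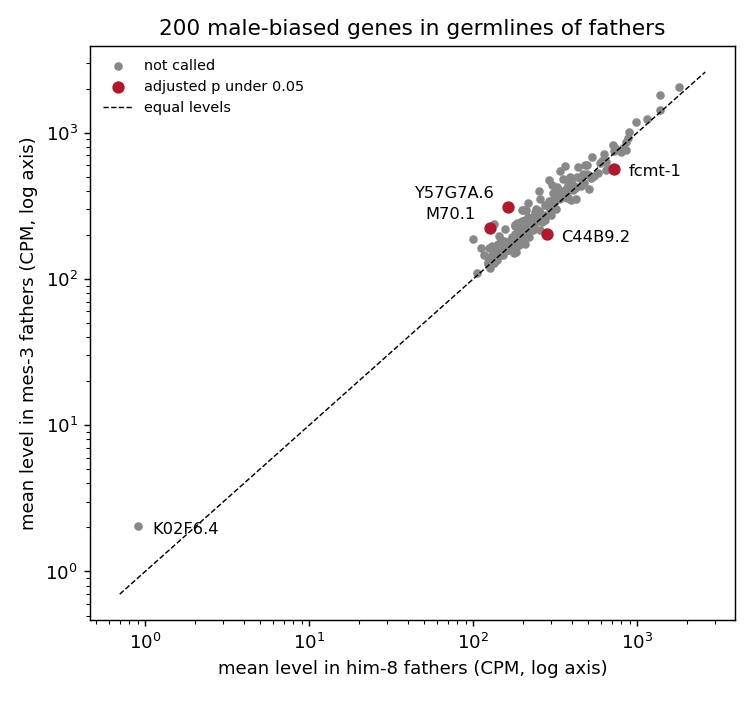
Mean RNA level of the 200 genes in mes-3 fathers (vertical axis) and him-8 fathers (horizontal axis), in CPM on log axes, with 3 libraries per group. The 4 called genes are named, and K02F6.4 lies apart from all others, at a mean of 2.04 CPM in mes-3 fathers and 0.908 CPM in him-8 fathers.

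One member set the strains apart. K02F6.4, on chromosome II, had 93.8, 162, 203 and 253 CPM in M+P- males and 96.8, 154, 192 and 271 CPM in M+P+ males, whose mothers were CB4856. In fathers, which had no CB4856 parent, it had 1.96, 1.40 and 2.75 CPM in mes-3 males and 1.55, 0.564 and 0.608 CPM in him-8 males. The 2 kinds of male did not overlap, and the gene with the next lowest mean in him-8 fathers, F52H3.6, had 99.6 CPM. Of reads over sequence differences between the strains in K02F6.4, the sperm (N2) allele held 3.17% ± 0.91 in M+P- males (SD, n = 4, 2367 reads) and 2.80% ± 1.22 in M+P+ males (SD, n = 3, 1644 reads). The gene was chosen after its values were seen. Strain and culture differ together between fathers and offspring.

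In sons, no gene of the program was called by paternal history without a replicate block. With the replicate number as a block 6 of the 200 were called (3%), beside 5.24% of genes. The values that follow are from the fit without it. Of the 200 genes, 0 were called in M+P- over M+P+ male germlines, beside 1.89% of 9281 genes (1.85% higher and 0.0323% lower), and 0 had an unadjusted p under 0.05 in edgeR. DESeq2 called 0 as well. The median log2 difference was -0.07, beside -0.02 over all genes, and 154 of the 200 were below 0, where 45.9% of all genes were above it. The M+P+ libraries of this contrast are those that chose the genes as high. The lowest adjusted p belonged to ZK484.7, with 141, 169, 169 and 168 CPM in M+P- males, against 171, 189 and 217 CPM in M+P+ male replicates 1, 2 and 4 (-0.28 ± 0.14, edgeR adjusted p = 0.574). Its groups did not overlap. The standard errors bound the other genes less tightly, with ssq-2 at -0.35 ± 0.51 and spe-4 at -0.08 ± 0.26.

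Both parental alleles of the program were transcribed in sons. Sequence differences gave allele reads for 83 of the 200 genes, and the other 117 had none. Summed over the 83, the sperm allele held 52.7%, 52.5%, 52.1% and 51.7% of 10750 to 22122 reads in M+P- males, against 51.3%, 50.0%, 50.1% and 49.4% of 13965 to 27031 reads in M+P+ males. The exact 95% binomial intervals, which cover counting error only, were 51.7% to 53.6% in M+P- replicate 1 and 48.8% to 50.0% in M+P+ replicate 4. All 4 M+P- libraries lay above all 4 M+P+ libraries, and all genes together did likewise, at 52.7% to 53.3% in M+P- males and 51.7% to 52.1% in M+P+ males. Of the 57 genes with at least 10 allele reads on average, 48 had a sperm share between 40% and 60% in M+P- males and 44 had one in M+P+ males. In the fit of allele by history 0 of 57 were called, beside 0.123% of 2447 genes, with 5 at an unadjusted p under 0.05 (edgeR; DESeq2 was not run on allele counts). Without M+P+ replicate 1, 1 was called (1.75%, beside 0.164% of genes). The extremes were K02F6.4, described above, F17E9.5 with 0 of 75 reads in M+P- males, which allows a share of up to 4%, and 0 of 23 reads in M+P+ males, which allows up to 13.04%, and C09D4.3 with 78.4% ± 1.15 in M+P- males (SD, n = 4) and 75.2% ± 2.46 in M+P+ males (SD, n = 3). The share of F17E9.5 in M+P+ males has no SD. Its mean in him-8 fathers, which had no CB4856 parent, was no lower than the 99.6 CPM of F52H3.6. Why its sperm allele had no reads was not tested.

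Hermaphrodite germlines of the first cross held a trace of the program. The 200 genes summed to 160 and 136 CPM in M+P- hermaphrodites, against 78.5 and 59.3 CPM in M+P+ hermaphrodites. A single gene, T08B6.4, made up 29.6% and 26.1% of the M+P- sums. Without it the sums were 113 and 101 CPM in M+P- and 76.3 and 57.8 CPM in M+P+ hermaphrodites. The 2 M+P+ libraries are those in which the rule chose the genes as low, so a higher sum in M+P- libraries follows in part from the choice and is a description. Most members stayed near the floor of detection, with 25 to 28 genes over 1 CPM in M+P- and 6 to 17 in M+P+ libraries.

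Of the 200 genes, 36 passed the filter on low counts, 10 rose in M+P- hermaphrodites and 0 fell, beside 5.11% of 8409 genes that rose and 4.63% that fell (9.74% called). The members were chosen as low in the M+P+ libraries of this contrast, and most could pass the filter through M+P- libraries alone. The count, and the tests of single members of this contrast that follow, are thus a description. They are not support for a change of the whole program. Of the 10, 6 kept their call under each of the alternatives in which they were tested, namely T08B6.4, C30G7.3, ZK354.2, ZK354.8, kel-10 and try-16. These and the other genes without a symbol were named after their values were seen. The other 4 (C31H1.1, Y48B6A.5, D1086.17 and F57H12.5) lost it with DESeq2 and when M+P- replicate 1 or either M+P+ library was left out, which left 6 called each time. Of 79 members with an adjusted p in the authors' deposited table, 8 were called higher and 0 lower in this comparison, and all 8 were among the 10. The share of all genes called in that table is not given here. It comes from the same series, so the overlap is a description.

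T08B6.4 drew the most counts of the 6. It had 47.4 and 35.5 CPM in M+P- hermaphrodites, against 2.20 and 1.49 CPM in M+P+ hermaphrodites, a log2 difference of 4.49 ± 0.24 (edgeR adjusted p = 1.63e-06). It had 452, 689.6, 908 and 939 CPM in M+P- males, so the M+P- hermaphrodite level was a small part of the male one. kel-10, a kelch-repeat gene, had 6.70 and 5.55 CPM in M+P- hermaphrodites, against 0.339 and 1.12 CPM in M+P+ hermaphrodites (3.01 ± 0.46, edgeR adjusted p = 0.00102). ZK354.2 had 5.16 and 4.64 CPM in M+P- hermaphrodites, against 0.508 and 0.521 CPM in M+P+ hermaphrodites (3.22 ± 0.42, edgeR adjusted p = 0.000381). The groups did not overlap in any of the 3.

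For the other 3 the M+P+ libraries held 2 or 3 counts in all, so that the ratio is loose. C30G7.3 had 100 counts in M+P- and 3 in M+P+ hermaphrodites, a ratio of CPM of 36.4 with an exact 95% counting interval of 12.1 to 179 (edgeR adjusted p = 0.000378). ZK354.8 had 69 counts in M+P- and 2 in M+P+ hermaphrodites (ratio 37.7, interval 10.04 to 317, edgeR adjusted p = 0.000670). try-16, which encodes a trypsin-like protease, had 48 counts in M+P- and 2 in M+P+ hermaphrodites (ratio 26.2, interval 6.87 to 223, edgeR adjusted p = 0.00128).

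The well known sperm genes were not among them. ssq-2 had 0.996 and 1.08 CPM in M+P- hermaphrodites, against 1.35 and 0.372 CPM in M+P+ hermaphrodites. spch-3 had 1.09 and 0.745 CPM in M+P- hermaphrodites, against 0.931 and 0.447 CPM in M+P+ hermaphrodites. The 2 groups overlapped in both genes, unlike T08B6.4. Of marker sums, muscle was 93.5 to 96.0 CPM in M+P- and 68.6 to 71.4 CPM in M+P+, intestine 86.4 to 255 CPM in M+P- and 37.3 to 55.2 CPM in M+P+, and oogenesis 22293 to 22534 CPM in M+P- and 25117 to 27204 CPM in M+P+ hermaphrodites. The part of these tissues in the members' levels was not tested.

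Many of the nearest genes had little RNA. All 10 genes nearest to T08B6.4 in RefSeq order were under 1 CPM in M+P- hermaphrodites, the highest at 0.351 CPM (str-161, a chemoreceptor gene), and T08B6.9, 3 genes away, averaged 156 CPM in M+P- males and 0.132 CPM in M+P- hermaphrodites. Of the neighbours in the table, 8 of 9 of C30G7.3, 6 of 10 of ZK354.2 and 4 of 10 of kel-10 were under 1 CPM in M+P- hermaphrodites. ZK354.2 and ZK354.8 lie 5 genes apart on chromosome IV, with msp-58 and msp-59, genes of major sperm protein, between them at 0.0453 and 0.0414 CPM in M+P- hermaphrodites. Between them too lies ZK354.3, which is no member, with a mean of 2.85 CPM in M+P- and 1.00 CPM in M+P+ hermaphrodites. Beside C30G7.3 on chromosome V, hil-1, which encodes a linker histone, averaged 5.70 CPM in M+P- and 1.14 CPM in M+P+ hermaphrodites. These neighbours were chosen after their values were seen and were not tested here.

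**Figure D3:**
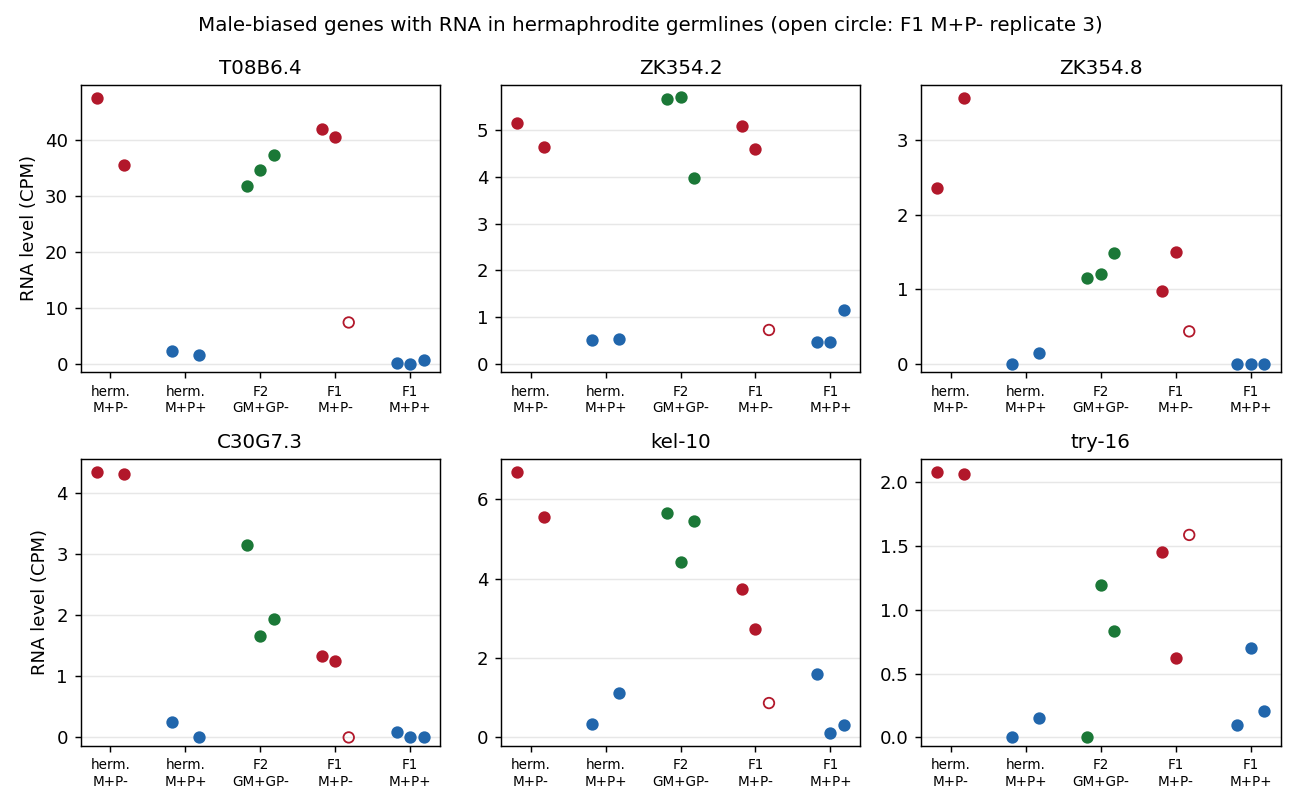
RNA level (CPM) of 6 of the 200 genes in each hermaphrodite germline library, by group. M+P- libraries of the first cross (35.5 to 47.4 CPM for T08B6.4) and F2 and F1 M+P- libraries lie above M+P+ libraries for T08B6.4, and F1 M+P- replicate 3, the open circle, lies at 7.36 CPM.

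In the second cross, made with the other mes-3 allele, the sum of the 200 genes was 96.6, 96.0 and 56.3 CPM in F1 M+P- hermaphrodites, against 30.9, 32.1 and 29.3 CPM in F1 M+P+ hermaphrodites. Without T08B6.4, which held 43.5%, 42.3% and 13.1% of the F1 M+P- sums, they were 54.6, 55.4 and 48.95 CPM in F1 M+P- and 30.7, 32.1 and 28.7 CPM in F1 M+P+. The groups did not overlap. In F2 GM+GP- worms the sum was 86.0, 88.2 and 98.2 CPM, and 54.3, 53.7 and 61.0 CPM without T08B6.4. The summed muscle markers were 159.95 to 201 CPM in F2, 91.5 to 219 CPM in F1 M+P- and 83.3 to 150.1 CPM in F1 M+P+ worms. The neuron markers were 209 to 216 CPM in F2, 67.0 to 212 CPM in F1 M+P- and 171 to 186 CPM in F1 M+P+ worms. In both lists F2 lay above F1 M+P+ without overlap and F1 M+P- overlapped F1 M+P+, and the part of these tissues in the members' levels was not tested.

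Of the 200 genes, 11 passed the filter in F1 worms (F1 M+P- replicates 1 and 2). Genes near 0 in F1 M+P+ worms could pass through the M+P- libraries alone, so the count that follows describes them and is not support for a change of the program. Of the 11, 3 rose in F1 M+P- over F1 M+P+, beside 2.19% of 8326 genes that rose (3.16% called). The 3 were T08B6.4, ZK354.2 and C30G7.3, and all 3 were among the 10 of the first cross, whose libraries are separate. Of the 10, C31H1.1, try-16, F57H12.5, ZK354.8 and D1086.17 were not tested in F1. The overlap of all called genes was not computed, so this is a description. T08B6.4 had 41.997, 40.6 and, in replicate 3, 7.36 CPM in F1 M+P- hermaphrodites, against 0.188, 0 and 0.624 CPM in F1 M+P+ hermaphrodites (7.13 ± 0.41, edgeR adjusted p = 3.44e-05). ZK354.2 had 5.08, 4.61 and 0.722 CPM in F1 M+P- hermaphrodites, against 0.470, 0.467 and 1.14 CPM in F1 M+P+ hermaphrodites (2.76 ± 0.46, edgeR adjusted p = 0.0158). In both genes F1 M+P- replicates 1 and 2 stood above all F1 M+P+ libraries, and replicate 3 was the lowest of F1 M+P-. With replicate 3 in the fit 0 of the 200 were called (T08B6.4 at 6.65, edgeR adjusted p = 0.508). C30G7.3 had 21 counts in F1 M+P- and 1 count in F1 M+P+ hermaphrodites, a ratio of CPM of 37.1 with an exact counting interval of 5.97 to 1536 (edgeR adjusted p = 0.0246). Without F1 M+P- replicate 1 only T08B6.4 was called (ZK354.2 at an adjusted p of 0.0656), and C30G7.3 lost its call without F1 M+P+ replicate 3 (adjusted p = 0.0847) and with DESeq2 (0.0624). Of 111 members with an adjusted p in the authors' deposited table, 7 were called higher in F1 hermaphrodites, 3 of them called here too. The share of all genes called there is not given here.

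The F2 worms were compared with the F1 M+P+ libraries that also served as controls above. Members near 0 in those could again pass the filter through the F2 libraries alone (ZK354.8 had 0 counts in all 3 F1 M+P+ libraries), so their count and direction are a description. F2 worms had 5 of 12 tested members higher and 0 lower, beside 2.54% of 8296 genes that rose and 0.663% that fell (3.21% called). T08B6.4 had 31.7, 34.5 and 37.2 CPM in F2 hermaphrodites, against 0.188, 0 and 0.624 CPM in F1 M+P+ hermaphrodites (6.86 ± 0.36, edgeR adjusted p = 9.91e-06). ZK354.2 had 5.67, 5.71 and 3.98 CPM in F2 hermaphrodites, against 0.470, 0.467 and 1.14 CPM in F1 M+P+ hermaphrodites (2.82 ± 0.39, edgeR adjusted p = 0.00221). All F2 libraries lay above all F1 M+P+ libraries in both genes. kel-10 had 5.67, 4.42 and 5.46 CPM in F2 hermaphrodites, against 1.60, 0.117 and 0.312 CPM in F1 M+P+ hermaphrodites (2.80 ± 0.56, edgeR adjusted p = 0.0196), and it lost its call without F2 replicate 1, F2 replicate 3 or F1 M+P+ replicate 3 (adjusted p = 0.0723, 0.0949 and 0.0793). C30G7.3 had 69 counts in F2 and 1 count in F1 M+P+ hermaphrodites (ratio 63.8, interval 11.1 to 2554, edgeR adjusted p = 0.00216). ZK354.8 had 1.16, 1.20 and 1.48 CPM in F2 hermaphrodites and 0 counts in all 3 F1 M+P+ libraries, so it was at least 12.3-fold higher against a floor of 3 counts over the group (edgeR adjusted p = 0.00597). These 5 were among the 10 of the first cross. Of the 10, C31H1.1, try-16, F57H12.5 and D1086.17 were not tested here. The overlap of all called genes was not computed, so this too is a description.

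Between F2 and F1 M+P- hermaphrodites, 0 of 17 tested members were called, beside 0.0464% of 8622 genes (0.0116% higher and 0.0348% lower, edgeR). 1 had an unadjusted p under 0.05, T08B6.4, with a mean of 34.5 ± 2.74 CPM (SD, n = 3) in F2 and 41.3 ± 0.99 CPM (SD, n = 2) in F1 M+P- hermaphrodites (-0.26 ± 0.11, edgeR adjusted p = 1.00), and DESeq2 called 0. Allele reads over the 200 genes numbered 16 to 33 per first-cross hermaphrodite library and 4 to 15 per second-cross library, too few to split by parent, and T08B6.4 had none.

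Newly hatched larvae held little of the program. Against M+P- males, all 200 genes were lower in M+P- larvae, beside 38.7% of 14864 genes that were lower (88.9% called). The genes were chosen as high in male germlines, and 50 of them had 0 counts in all M+P- larvae and passed the filter through males alone, so this is a description. The median log2 difference was -10.51, beside 0.78 over all genes with the scaling used and 1.06 with DESeq2's size factors. The sum was 219, 203 and 179 CPM in M+P- larvae, against 133, 173 and 145 CPM in M+P+ larvae, and the groups did not overlap. Nor did those of 3 marker sums, which were lower in M+P- larvae: intestine with 5869 to 7302 CPM in M+P- and 8056 to 8438 CPM in M+P+, oogenesis with 278 to 360.2 CPM in M+P- and 379.95 to 409 CPM in M+P+, and germline core with 472 to 511 CPM in M+P- and 519 to 551 CPM in M+P+ larvae. Their part in the members' sum was not tested. In all 6 libraries 32 of the genes were at 0 and 12 were over 1 CPM. The most counts fell on F32B5.1, with 26.9, 28.6 and 41.5 CPM in M+P- larvae and 31.4, 29.4 and 30.8 CPM in M+P+ larvae. pfk-1.2, which encodes a phosphofructokinase of glycolysis, had 8.04, 6.22 and 3.55 CPM in M+P- larvae and 1.13, 4.85 and 3.15 CPM in M+P+ larvae, with overlap.

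Of 57 members tested in larvae, 0 were called in M+P- over M+P+, beside 0.00684% of 14618 genes (edgeR), and 2 had an unadjusted p under 0.05. DESeq2 called 1, Y106G6G.4. It had 6.23, 5.39 and 4.38 CPM in M+P- larvae, against 0.621, 1.25 and 0.945 CPM in M+P+ larvae, with no overlap (2.38 ± 0.58, edgeR adjusted p = 0.370; 2.39 ± 0.65, DESeq2 adjusted p = 0.0469). T08B6.4 had 0.652, 0.641 and 1.46 CPM in M+P- larvae and 0, 0.469 and 0 CPM in M+P+ larvae.

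Chromatin of the program was described first by the authors' z-scores, which 199 of the 200 genes have and which lie near 0 on average over genes. 11 of the 199 had no CUT&RUN counts in any library and shared the lowest score in each, so they give no measurement. They include cylc-2, F59A6.4, clec-151, cyc-2.2, BE10.1 and B0261.6. Higher H3K27me3 than the typical gene was seen in each library: the members' median was 0.60 and 0.51 in him-8 males and 0.37 to 0.71 in hermaphrodites, beside 0.32 to 0.52 over all genes. Of the 199, 175 to 183 lay above 0, as did 63.5% to 70.2% of all genes.

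H3K36me3 scores of the members were higher in him-8 males, whose libraries had the lowest depth, than in the hermaphrodites. The members' median z-score was 0.40 and 0.39 in him-8 males, beside -0.05 and -0.03 over all genes, and 168 and 171 of 199 lay above 0 (47.8% and 48.2% of all genes). In the 10 hermaphrodite libraries it ran from -0.15 to 0.19, and the highest of these was M+P+ replicate 2, which stood apart in depth. The mean score was higher in him-8 males than in first-cross M+P+ hermaphrodites for 168 of 199 genes (52.3% of all genes) and higher than in F1 M+P+ hermaphrodites for 180 of 199 (49.9% of all genes). In the counts, the median log2 difference of him-8 males over M+P+ hermaphrodites was 0.59, beside -0.02 over all genes, and 145 of 189 tested members were above 0 (49.3% of all genes). With 2 libraries per group 0 of 189 were called, beside 0% of 22593 genes (edgeR), with 10 at an unadjusted p under 0.05, and DESeq2 called 0. Leaving out M+P+ replicate 1, which left 1 library in that group, changed the count called in edgeR. Sex, strain, genotype and library depth differ together between these groups.

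**Figure D4:**
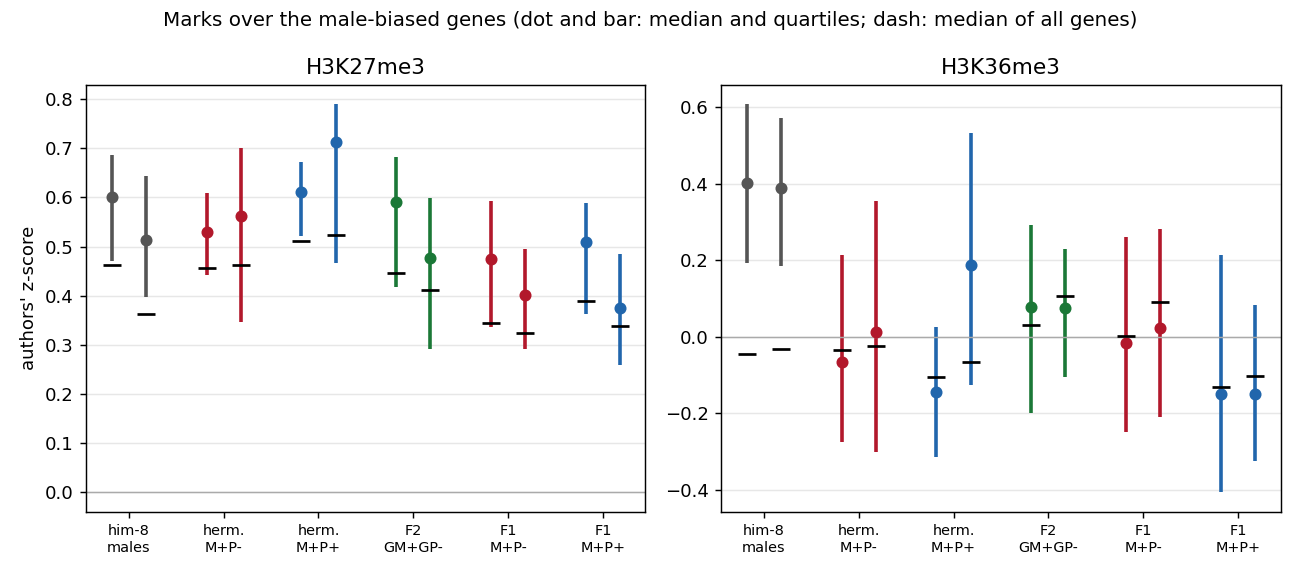
The authors' z-scores of H3K27me3 and H3K36me3 over 199 of the genes in each library, with the median as a dot, the quartiles as a bar and the median of all genes as a black dash. For H3K36me3 the 2 him-8 male libraries (0.40 and 0.39) lie above all 10 hermaphrodite libraries.

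Among the genes with the highest H3K36me3 score in him-8 males were T23G11.1 (1.35), K06A5.2 (1.25), nsph-3.1 (1.00), F37A4.5 (0.96) and the carrier gene ant-1.3 (0.96). F37A4.5 lay at 0.11 to 0.45 in the 10 hermaphrodite libraries, whereas ant-1.3 lay at 0.61 to 1.49. H3K27me3 scored highest at nsph-3.1 (1.504), C45G9.4 (0.97), ZK354.8 (0.89), C31H1.1 (0.83) and ssp-11 (0.83). Apart from the 11 genes without counts, 4 members had an H3K27me3 score below 0 in all 12 libraries: K06A5.2, T23G11.1, C44B9.2 and Y53F4B.11. All 4 had H3K36me3 above 0 in all 12.

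In H3K27me3 counts of him-8 males over M+P+ hermaphrodites, 5 of 189 members rose and 0 fell, beside 5.13% of 28612 genes that rose and 8.86% that fell (14% called). Y43F8A.2 had 93.7 and 119 CPM in him-8 males, against 58.7 and 20.6 CPM in M+P+ hermaphrodites (1.32 ± 0.36, edgeR adjusted p = 0.0269). snf-5, of the sodium-dependent transporter family, had 96.9 and 86.2 CPM in him-8 males, against 54.3 and 40.5 CPM in M+P+ hermaphrodites (0.84 ± 0.22, edgeR adjusted p = 0.0215). The libraries did not overlap in either gene. The other 3 were Y53F4B.11 (1.504 ± 0.41), Y69A2AR.19 (1.54 ± 0.43) and K06A5.2 (1.76 ± 0.54), with edgeR adjusted p of 0.0280, 0.0313 and 0.0465. Library depth also differed between these groups, and its part was not tested. Of the 5, Y43F8A.2 kept its call whichever library was left out. The count of members called changed without him-8 replicate 2 and on leaving out either M+P+ library, and each of these left 1 library in a group.

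In first-cross hermaphrodites most members had slightly lower H3K27me3 counts in M+P- worms, and none was called without a replicate block. With the replicate number as a block 58 of 189 were called (30.7%), beside 10.3% of genes. The log2 difference of M+P- over M+P+ was below 0 for 170 of 189 members, with a median of -0.20, beside -0.01 over all genes, of which 48.8% were above 0. Without the block no member was called in edgeR (0 of 189, beside 0% of 29121 genes), 1 had an unadjusted p under 0.05, and DESeq2 called 0. That one was T08B6.4, with 43.3 and 50.9 CPM in M+P-, against 60.3 and 80.03 CPM in M+P+ hermaphrodites (-0.63 ± 0.22, edgeR adjusted p = 1.00). Its groups did not overlap. In the second cross the members' median of F1 M+P- over F1 M+P+ was 0.01, beside 0.00 over all genes, with 0 of 189 called (0% of 29099 genes, edgeR), 5 at an unadjusted p under 0.05 and 0 by DESeq2.

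Split by parent, the sperm allele held 48.7% and 40.6% of the members' H3K27me3 allele reads in M+P- hermaphrodites, against 51.2% and 49.9% in M+P+ hermaphrodites (7117 to 10133 reads over 79 genes, with exact 95% intervals of at most 1.58 points to either side). Over all genes it held 49.1% and 45.8% in M+P- and 52.4% and 52.4% in M+P+. In F1 worms the members' share was 43.9% and 49.2% in M+P-, against 48.3% and 51.7% in M+P+, and the groups overlapped, as they did not in the first cross. Over all genes the F1 shares were 46.6% and 48.8% in M+P-, against 50.3% and 51.7% in M+P+. Of 78 members tested for a difference of allele by history, 65 were below 0 (median -0.54, beside -0.30 over all genes, of which 26.5% were above 0), and 1 was called, beside 1.29% of 11778 genes. It was Y69A2AR.19, with 28 of 52 and 9 of 34 H3K27me3 allele reads from the sperm allele in M+P-, against 82 of 105 and 34 of 45 in M+P+ hermaphrodites (-2.21 ± 0.55, edgeR adjusted p = 0.0363). Its call was lost without M+P- replicate 2 and on leaving out either M+P+ library, and the count of members called changed without M+P- replicate 1. Each of these fits left 1 library in a group.

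H3K36me3 allele reads leaned the other way. The sperm allele held 59.3% and 70.5% of the members' H3K36me3 reads in M+P- hermaphrodites, against 55.2% and 54.1% in M+P+ hermaphrodites, on 2010 to 8330 reads, with exact 95% intervals of at most 2.31 points to either side. All genes together had 56.9% and 59.0% in M+P- and 54.3% and 54.8% in M+P+. Of 71 members tested 0 were called, beside 0% of 10421 genes (edgeR; DESeq2 was not run), with 2 at an unadjusted p under 0.05. Without M+P+ replicate 1, 10 of 68 (14.7%) and 12.1% of all genes were called. In F2 worms the members' share was 59.7% and 60.2%, against 57.1% and 60.02% in F1 M+P- and 56.6% and 55.2% in F1 M+P+ worms. Over all genes it was 54.2% and 55.2% in F2, 58.2% and 57.5% in F1 M+P- and 55.0% and 54.5% in F1 M+P+ worms. As F2 worms had no father, the sperm label there names the allele of the grandfather's strain.

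Some genes with more RNA in M+P- hermaphrodites also had more H3K36me3. In F1 hermaphrodites 3 of 189 members rose in M+P- and 0 fell, beside 0.121% of 24018 genes that rose. T08B6.4 had 65.7 and 48.7 CPM of H3K36me3 in F1 M+P-, against 15.4 and 15.6 CPM in F1 M+P+ hermaphrodites (1.83 ± 0.27, edgeR adjusted p = 0.00496). ZK354.2 had 67.6 and 35.6 CPM in F1 M+P-, against 15.7 and 15.8 CPM in F1 M+P+ hermaphrodites (1.66 ± 0.30, edgeR adjusted p = 0.0286). The F1 M+P- libraries lay above both F1 M+P+ libraries in the 2 genes, and in the third. This was ZK354.8, with 51.9 and 27.8 CPM in F1 M+P-, against 7.001 and 13.1 CPM in F1 M+P+ hermaphrodites (1.95 ± 0.35, edgeR adjusted p = 0.0258). Without F1 M+P- replicate 1, T08B6.4 was the only one called, with ZK354.2 at an adjusted p of 0.651 and ZK354.8 at 0.424, and ZK354.8 was also lost without F1 M+P+ replicate 1 (0.170). Leaving out F1 M+P+ replicate 2, which left 1 library in that group, also changed the count of members called. C30G7.3, whose RNA also rose, had a log2 difference of 0.94 ± 0.25 and an edgeR adjusted p of 0.235.

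In the first cross T08B6.4 had 64.3 and 80.9 CPM of H3K36me3 in M+P- hermaphrodites, against 22.4 and 26.4 CPM in M+P+ hermaphrodites, with no overlap (1.31 ± 0.49, edgeR adjusted p = 1.00). It was the 1 member with an unadjusted p under 0.05 (0 of 189 called, beside 0% of 24469 genes, edgeR; 0 by DESeq2), and the fit includes M+P+ replicate 2, whose total stands apart. Without that library T08B6.4 was called (1.75 ± 0.37, edgeR adjusted p = 0.00196) as the 1 member, and without M+P+ replicate 1, 38 members (20.1%) and 45.2% of all genes were called. In F2 worms T08B6.4 had 57.0 and 57.2 CPM, against 15.4 and 15.6 CPM in F1 M+P+ worms (1.64 ± 0.36, edgeR adjusted p = 0.152). Of 189 members 0 were called there, beside 0% of 24592 genes (edgeR), with 24 at an unadjusted p under 0.05 and 0 by DESeq2. Without F2 replicate 1 or replicate 2, 11 and 1 were called, beside 22.1% and 0.0350% of all genes. The median of all genes was 0.24 with the scaling used and 0.08 with DESeq2's size factors. In him-8 males, where T08B6.4 is transcribed at 459 to 633 CPM, its H3K36me3 was 28.8 and 27.5 CPM, close to the 22.4 and 26.4 CPM of M+P+ hermaphrodites (0.21 ± 0.69, edgeR adjusted p = 1.00).

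The other 3 genes of this set had like values in the first cross, none of them called (edgeR adjusted p = 1.00 for each). ZK354.2 had 39.8 and 49.5 CPM of H3K36me3 in M+P-, against 18.1 and 26.2 CPM in M+P+ hermaphrodites, and ZK354.8 had 25.4 and 32.4 CPM in M+P-, against 21.7 and 8.31 CPM in M+P+ hermaphrodites. C30G7.3 had 39.9 and 46.4 CPM of H3K36me3 in M+P-, against 28.7 and 22.4 CPM in M+P+ hermaphrodites. Its H3K27me3 was 76.2 and 74.1 CPM in M+P-, against 87.7 and 90.5 CPM in M+P+ hermaphrodites (-0.30 ± 0.15, edgeR adjusted p = 1.00). In these 3 genes no M+P- library overlapped an M+P+ library in H3K36me3.

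**Figure D5:**
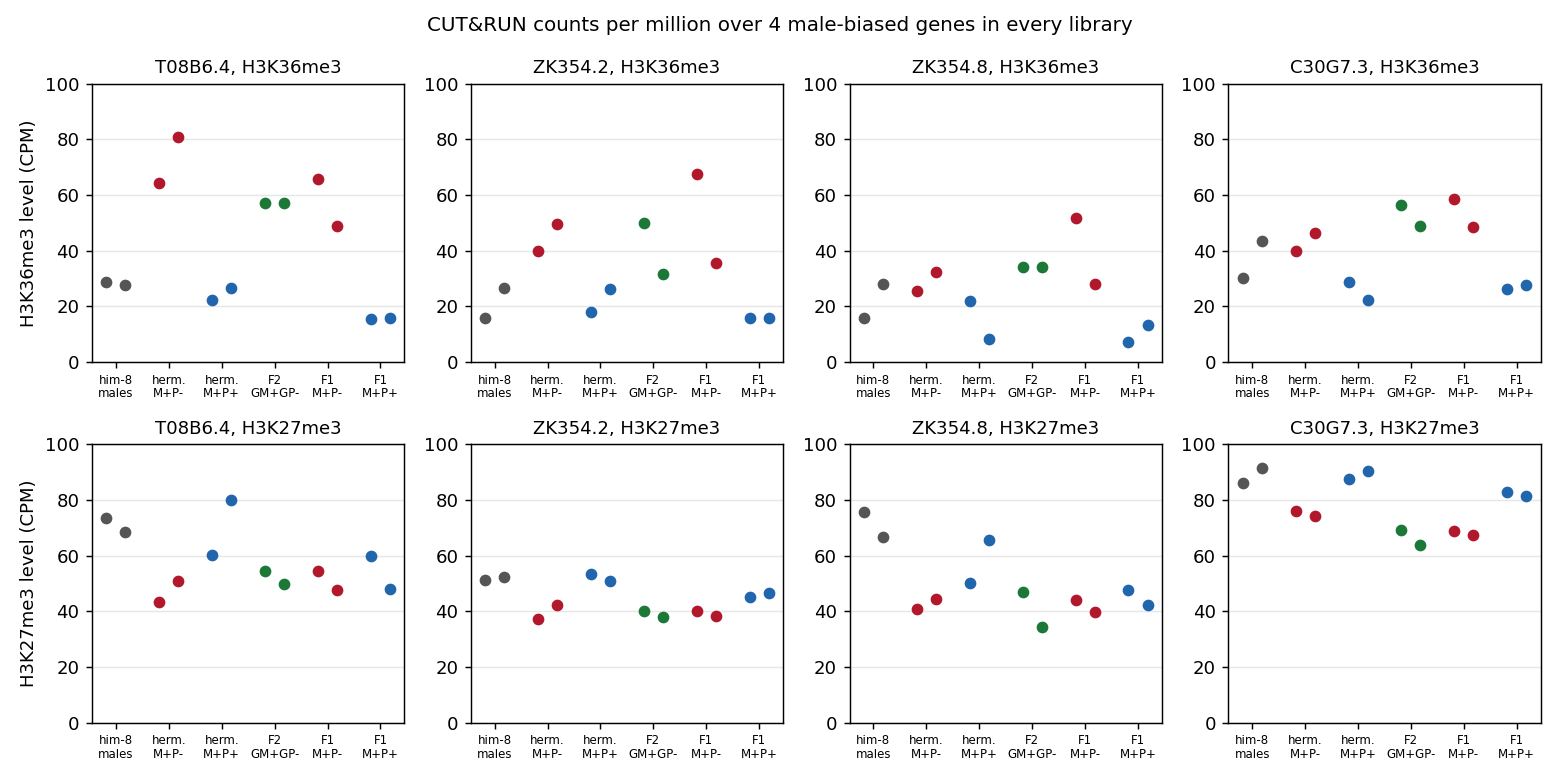
CUT&RUN levels (CPM) of H3K36me3 (upper panels) and H3K27me3 (lower panels) over 4 of the genes, in each library of 6 groups with 2 libraries each. For T08B6.4, H3K36me3 lies at 64.3 and 80.9 CPM in first-cross M+P- hermaphrodites and at 22.4 and 26.4 CPM in M+P+ hermaphrodites.

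H3K27me3 in F2 over F1 M+P+ worms was called at 3 of 189 members, beside 10.6% of 29073 genes (0.650% higher and 9.91% lower). Y53F4B.11 had 12.3 and 13.97 CPM in F2, against 23.2 and 23.0 CPM in F1 M+P+ worms (-0.82 ± 0.20, edgeR adjusted p = 0.0108). Y69A2AR.19 had 28.4 and 30.4 CPM in F2, against 46.6 and 40.2 CPM in F1 M+P+ worms (-0.57 ± 0.16, edgeR adjusted p = 0.0232). Both fell without overlap. Y113G7C.1 rose, with 144 and 149 CPM in F2, against 124.5 and 103 CPM in F1 M+P+ worms (0.35 ± 0.11, edgeR adjusted p = 0.0411). Its call was lost without F2 replicate 1, F2 replicate 2 or F1 M+P+ replicate 2 (adjusted p = 0.0871, 0.147 and 0.436), that of Y53F4B.11 without F1 M+P+ replicate 2 (0.0573), and that of Y69A2AR.19 without F2 replicate 1 or F1 M+P+ replicate 1 (0.0777 and 0.193). The count was 11 without F2 replicate 2 and 6 without F1 M+P+ replicate 1, beside 11.8% and 10.4% of all genes called. T08B6.4 had 54.5 and 49.8 CPM of H3K27me3 in F2, against 59.996 and 47.9 CPM in F1 M+P+ worms, with overlap (-0.06 ± 0.15, edgeR adjusted p = 0.849).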

How the data were processed

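The members, gene lists and tests were chosen with earlier results of these data known. RNA and CUT&RUN values are raw counts per gene as deposited by the authors, from RNA read pairs mapped as pairs and CUT&RUN reads mapped as single ends per the file headers, with build ce10. The tools were TopHat2 2.1.1, Bowtie2 2.3.5.1, HTSeq, DESeq and DESeq2 1.22.2, with no roles given, per the submitters' processing notes. Whether strand was used in counting was not given in the sources used here. Allele counts, and a score per gene for each mark (a z-score whose formula no source used here gives), are as deposited by the authors. So are the log2 values and adjusted p-values of their deposited table.

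CPM were computed by column total, so they are not per length. Tests were edgeR 4.0.16 quasi-likelihood tests in R 4.3.3 on the counts of the groups compared, with TMM scaling, filterByExpr and Benjamini-Hochberg adjustment over all genes tested (threshold 0.05), and SE is that of the log2 fold change, from its F statistic. Allele tests fitted allele, library and the allele by history term, where allele reads averaged at least 10. The code was first tested on simulated data. Alternatives were DESeq2 1.42.0, its size factors, no filter, each library left out, libraries put back, and the replicate number as a block. In F2 over F1 M+P+ RNA, same-numbered libraries deviated together (correlations 0.299, 0.388 and 0.129). Correlations in several other comparisons are given with the block. The main fits used no block.

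Named genes were members on the sperm lists, the 10 highest by the rule, those at its threshold, called members with a symbol and the z-score extremes, and others were chosen after their values were seen. Names, chromosomes and gene order came from a RefSeq table of WBcel235, which matched 200 of 200 members. It is not ce10, so no coordinates are printed. Replicates are biological per the labels, and 0 of 47 replicate pairs were identical. Where a group was at 0, the floor was 3 counts, and this covers only counting error.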

Additional observations from a re-analysis of the deposited data

Results flagged for a closer look

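One value stood apart from its group. C44B9.2, a member that fell in mes-3 fathers, had 206 CPM in M+P- male replicate 1, while the other 3 M+P- male libraries lay between 260.2 and 268 CPM. Of the 42 groups of 4 libraries checked in this way, it was the 1 that exceeded the limit, and chance alone gives about 1 in 20. Replicate 1 was the lowest of the 4 for 199 of the 200 genes. The part of that library in the value was not tested.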

How the results depend on the processing

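Under the alternatives 230 of 293 values of single called members kept their direction and call, 63 lost the call with their direction kept, and 0 reversed. Of the counts of members called, 142 of 189 stayed within 1.5 times. Male over hermaphrodite and larva over male stayed at 200 under each alternative, and leaving out 1 library at a time left 180 to 192 of the 200 genes chosen. DESeq2 called 7 in fathers (4 here), 6 in first-cross hermaphrodites (10) and 1 in larvae (0). These were 3.5%, 3% and 0.595% of members with a count in the libraries compared, beside 5.97%, 2.99% and 0.371% of such genes. The shares include genes whether or not DESeq2 gave them an adjusted p. In first-cross hermaphrodites they cover 200 members, against 36 tested in edgeR, so they are not like the edgeR shares. Without the filter fathers gave 10 (5%, beside 7.02% of genes). F1 gave 10, against 3 (5.65%, beside 5.21% of genes). F2 over F1 M+P+ gave 10, against 5 (5.32%, beside 4.43%), and F2 over F1 M+P- 1, against 0 (0.559%, beside 0.69%). H3K27me3 in him-8 males gave 8, against 5 (4.23%, beside 19.47%), and in F2 7, against 3 (3.7%, beside 11.96%). In F1 the unfiltered share covers 177 members, against 11 with the filter, so the 2 shares are not alike. With DESeq2's size factors H3K27me3 in him-8 males gave 3 (1.59%, beside 12.1% of genes). With F1 M+P- replicate 3 put back F1 gave 0, beside 0% of genes. A minimum of 5 or 20 allele reads gave 2 and 3 for H3K27me3 (1), which were 2.56% and 3.85% of members, beside 1.47% and 1.83% of genes.

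Leaving out 1 library gave 0 to 9 in fathers, 6 to 8 in first-cross hermaphrodites, 1 to 4 in F1, 1 to 15 for H3K27me3 in him-8 males, 2 to 11 for H3K27me3 in F2, 0 to 2 for H3K36me3 in him-8 males, 0 to 38 for H3K36me3 in first-cross hermaphrodites, 1 to 5 for H3K36me3 in F1, 0 to 11 for H3K36me3 in F2, 0 to 3 for H3K27me3 alleles, 0 to 10 for H3K36me3 alleles and 0 to 1 for RNA alleles in males. The cause was not tested.

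With the replicate number as a block, members called are given beside the share of all genes called in the same fit. Fathers gave 54 (41 higher, 13 lower; 27% of members, 22.8% of genes), males 6 (all lower; 3%, 5.24%), H3K27me3 in first-cross hermaphrodites 58 (2 higher, 56 lower; 30.7%, 10.3%), H3K27me3 in F2 5 (2.65%, 11.9%), H3K36me3 in F1 10 (5.29%, 4.73%) and H3K36me3 in F2 10 (5.29%, 5.83%). Same-numbered libraries deviated together in H3K27me3 of the first cross (correlation 0.67). The correlations were 0.666, -0.0441 and 0.528 in fathers and 0.699, -0.0771 and 0.624 in males. They were -0.0239 for H3K27me3 in F2, 0.137 for H3K36me3 in F1 and 0.155 for H3K36me3 in F2. Whether equal numbers mark shared handling is not known here, so neither fit is preferred. In F2 over F1 M+P+ RNA, with correlations of 0.299, 0.388 and 0.129, the block left the count at 5 (41.7% of members tested, 7.64% of genes). First-cross hermaphrodite RNA, with a correlation of 0.159, gave 12 of 36 members tested (33.3%, beside 11.5% of genes). F1 RNA, with a correlation of 0.437, gave 4 of 9 (44.4%, beside 11.2% of genes). Crossing the pairs, an alternative added after seeing the data, gave 14 for H3K27me3 (7.41%, beside 32.5% of genes) and 1 for H3K36me3 (beside 0.868%) in him-8 males over hermaphrodites.

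With 2 libraries per group for each mark, members at few counts in a group and 11 members with no CUT&RUN counts, depth and replicate number limit what could be called.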
